A study of Schizosaccharomyces pombe with 4 samples.

Results

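Divergent gene pairs with close starts are neighbouring protein-coding genes of *S. pombe* that are transcribed away from each other from a short shared stretch of DNA. They were taken from the deposited annotation by position alone. The protein-coding genes of chromosomes I to III were sorted by start, and adjacent genes were kept as a pair where the first lies on the minus strand, the next on the plus strand, and 0 to 300 nt separate their annotated transcripts. This gave 303 pairs with 606 genes, 132 pairs on chromosome I, 125 on chromosome II and 46 on chromosome III. They are part of 1398 divergent pairs and of 5115 adjacent pairs of any orientation. The median distance was 111 nt, and the middle 50% of the pairs lay between 49 and 172 nt. The 965 tandem pairs in which both genes lie on the same strand 0 to 300 nt apart are given beside them, with a median distance of 153 nt. Of the genes, 121 belong to a divergent and a tandem pair at once.

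NET-Seq libraries were made from exponentially growing cells of the strain YAM2507, which lacks *exo2*, the gene of the cytoplasmic 5′-3′ exoribonuclease, and expresses Flag-tagged Rpb3, a subunit of RNAPII. All 4 libraries share this genotype, so that no value below compares *exo2*Δ with WT cells. For 2 biological replicates, nascent RNA purified with RNAPII (IP) and total RNA prepared by the same steps without that purification (input) were sequenced. The deposited density is the normalized reads of a gene divided by its length (tag/nt).

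Divergent genes can start from the edges of 1 nucleosome-depleted region, and initiation by RNAPII at many eukaryotic promoters occurs in both directions. A shared region can hold binding sites that serve either gene, or separate core promoters that are read independently. In fission yeast, histone genes are arranged as divergent pairs, and many ribosomal protein genes carry a HomolD box in place of a TATA box.

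The sequences between the starts show how little DNA some of these pairs share. They are given 5′ to 3′ on the plus strand, from the RefSeq genome (ASM294v3), with the coordinates of the deposited annotation. Capitals mark matches, on either strand, to the HomolD box CAGTCACA, to AACCCT, which recurs in histone promoters, to ACGCGT (the MCB box) and to TGACGT (the core of the CRE that Atf1 and Pcr1 bind). The *hta1*-*htb1* interval (chrIII:1412215-1412386) lies between the genes of histones H2A and H2B, and *hhf1*-*hht1* (chrI:4699545-4699690) between those of H4 and H3.
hta1-htb1: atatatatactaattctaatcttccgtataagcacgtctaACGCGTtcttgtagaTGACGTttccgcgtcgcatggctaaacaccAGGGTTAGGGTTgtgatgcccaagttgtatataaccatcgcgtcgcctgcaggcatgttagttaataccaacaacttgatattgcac
hhf1-hht1: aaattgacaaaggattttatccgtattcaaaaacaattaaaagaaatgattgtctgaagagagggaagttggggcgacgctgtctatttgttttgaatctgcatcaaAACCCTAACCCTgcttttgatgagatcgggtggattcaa

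Ribosomal protein genes gave the shortest of the strongly transcribed intervals. The *rpl701*-*rps1402* interval (chrII:1792296-1792311) consists of little more than a HomolD box, while *rpl35*-*rpl902* (chrIII:89635-89683) holds none. The intervals *uep1*-*rpl14* (chrI:2794802-2794902) and *trz2*-*rps2501* (chrII:1274128-1274228) have the same length and a HomolD box each, and are shown because their genes behaved differently.
rpl701-rps1402: cacaaattTGTGACTG
rpl35-rpl902: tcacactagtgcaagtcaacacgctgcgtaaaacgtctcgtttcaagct
uep1-rpl14: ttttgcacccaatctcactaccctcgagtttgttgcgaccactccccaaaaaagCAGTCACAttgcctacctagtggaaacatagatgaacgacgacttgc
trz2-rps2501: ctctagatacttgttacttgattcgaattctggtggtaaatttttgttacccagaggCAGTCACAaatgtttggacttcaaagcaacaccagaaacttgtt

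The last intervals mark both ends of the range of differences among pairs with enough reads. Of the pairs tested, *mug124*-*fba1* (chrII:1688061-1688335) differed most in nascent signal, and *cwf4*-*tma20* (chrII:3773192-3773298) least among those with 100 or more reads of each gene in each IP library.
mug124-fba1: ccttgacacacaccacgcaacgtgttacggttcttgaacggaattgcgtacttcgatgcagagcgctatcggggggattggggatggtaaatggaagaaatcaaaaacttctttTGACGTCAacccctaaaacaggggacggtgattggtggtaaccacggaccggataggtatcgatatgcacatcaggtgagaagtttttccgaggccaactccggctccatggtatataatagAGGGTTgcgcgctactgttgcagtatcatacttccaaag
cwf4-tma20: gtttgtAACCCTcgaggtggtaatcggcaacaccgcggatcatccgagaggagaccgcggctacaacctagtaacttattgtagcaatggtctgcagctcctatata

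Recovered reads over protein-coding genes ranged from 1653607 to 3343479 per library. The main coding exon of *exo2* had densities of 0.0113 and 0.0104 in the IP, against 0.158 and 0.140 over the rest of the gene, and 0.00212 and 0.00210 against 0.0203 and 0.0227 in the input. The genes of the divergent pairs had median recovered reads of 174.5 and 369.5 in IP replicates 1 and 2, and of 99 and 76 in the inputs. Of the 606 genes, 558 reached 10 reads in every library, 9 had no read in any library and 91 share nt with another annotated gene on the same strand, whose reads the table cannot separate.

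As a group, genes of the divergent pairs were transcribed like other genes. The median log2 IP density was -3.57 for them, -3.54 for the genes of the tandem pairs and -3.56 for all 5118 protein-coding genes, and the median log2 input density was -6.13, -6.01 and -6.04. A 5′UTR is annotated for 577 of the genes, with a median length of 163.5 nt. An antisense XUT, a transcript that Exo2 degrades, overlaps 109 of them by 50 nt or more (18.0%), against 26.2% of the genes of tandem pairs and 21.2% of all genes. The DNA between divergent starts had a G+C content of 32.95%, against 29.6% between tandem genes and 36.06% for the chromosomes. Another annotated feature lies over 44 of the 303 intervals (14.5%) and over 256 of the 965 tandem intervals (26.5%), and XUTs over 17 (5.61%) and 119 (12.3%). These differences in annotation and base composition were not tested.

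The levels of both genes of a divergent pair went together weakly. Over the 303 pairs, the log2 IP densities of the minus-strand and the plus-strand gene had a Spearman's rho of 0.0912 (0.0923 and 0.0836 in the replicates) and a Pearson's r of 0.294. Over the 965 tandem pairs, upstream and downstream gene had a rho of -0.000269 and an r of 0.149. In the input, rho was 0.0702 for divergent and -0.0450 for tandem pairs. These are descriptions over pairs that share libraries and, for tandem pairs, genes, and the difference between divergent and tandem pairs was not tested.

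**Figure D1:**
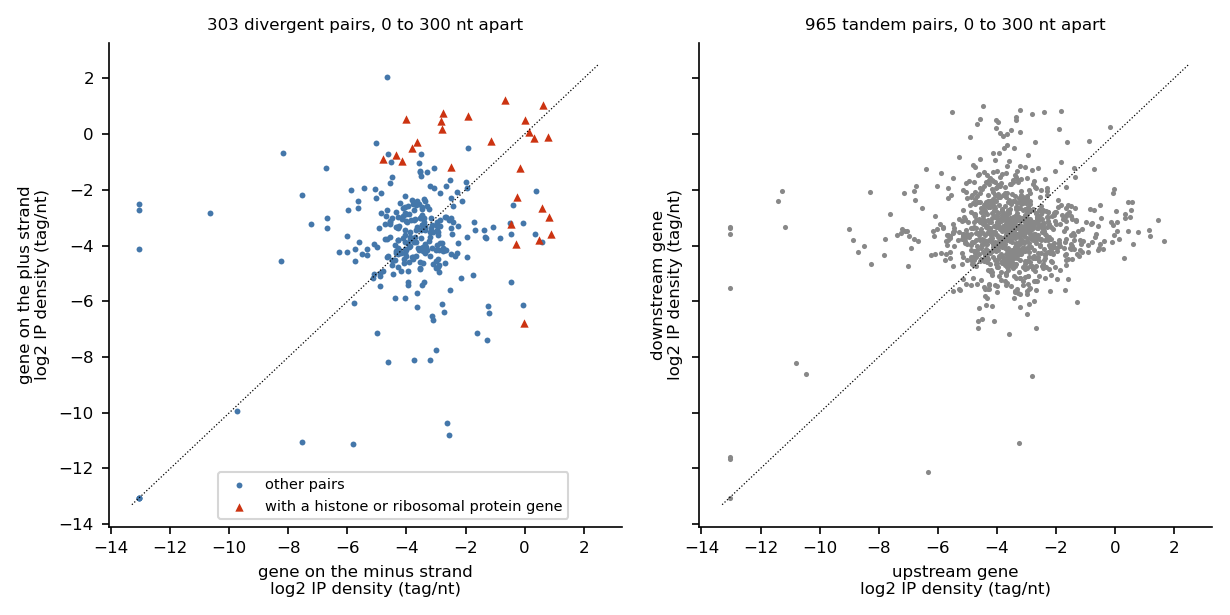
Log2 IP density (tag/nt, mean of 2 replicates) of both genes of each pair, for 303 divergent pairs (left) and 965 tandem pairs (right). The dotted line marks equal levels. Both clouds are round. Triangles are the 27 divergent pairs with a histone or cytosolic ribosomal protein gene, and points at the lowest value of an axis are genes with no IP read.

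A few pairs carried most of the divergent rho, though not of Pearson's r. Histone and cytosolic ribosomal protein genes, the products of which are needed in large amounts for chromatin and for ribosomes, belong to 27 divergent pairs (8.91%) and 39 tandem pairs (4.04%). These families were assigned by gene name alone (hht, hhf, hta, htb or pht, and rpl, rps or rpp). Genes of such proteins under other names, as *uep1*, therefore count as other genes in all counts and correlations by family. Without the pairs that hold a gene of these families, rho over the remaining 276 divergent pairs was -0.000294 in the IP and -0.0382 in the input. Leaving out only the 5 pairs in which both genes are histone genes or both ribosomal protein genes left a rho of 0.0479. The r of 0.294 depended more on genes without reads. It was 0.236 without these families and 0.152 without genes at 0 in an IP library. With neither these families nor such genes, r was 0.0171 over 267 pairs.

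Ranked by IP density among all protein-coding genes, both genes lay in the top 25% in 23 divergent pairs (7.59%) and in 39 tandem pairs (4.04%). Both lay in the bottom 25% in 22 (7.26%) and 41 (4.25%). However, 32 divergent pairs (10.6%) joined a gene of the top 25% to one of the bottom 25%, against 84 tandem pairs (8.70%). Pairs of like and of unlike extremes each took a larger share among divergent than among tandem pairs, and 53.5% and 49.3% had both genes on the same side of the median. These shares were not computed over all adjacent pairs, so they are not read as a trait of divergent pairs.

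In the middle of their range, the sizes of the differences in the IP were alike. The median absolute log2 difference in IP was 1.15 for divergent and 1.15 for tandem pairs, and 134 divergent pairs (44.2%) and 43.9% of the tandem pairs differed by 2-fold or less. Differences of over 8-fold were found in 58 divergent pairs (19.1%) and in 12.2% of the tandem pairs. In the input, the median difference was 1.25 and 1.34, and 42.6% and 37.5% differed by 2-fold or less.

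**Figure D2:**
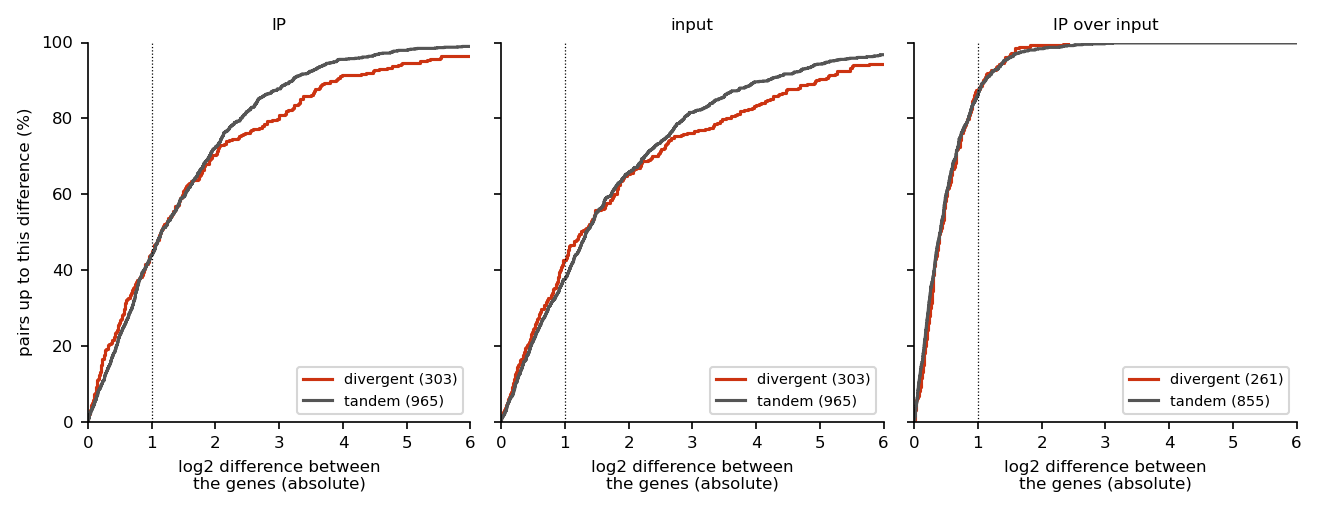
Percentage of pairs (y axis) whose genes differ by up to the absolute log2 difference on the x axis, in IP, input and IP over input, with the number of pairs in parentheses and 2-fold at the dotted line. In IP, the divergent and tandem curves run together up to about 4-fold. In input, 42.6% of divergent and 37.5% of tandem pairs are within 2-fold, and 34.7% and 34.3% differ by over 4-fold. Beyond 4-fold, in IP and input, a larger share of divergent than of tandem pairs is far apart, which is not particular to close divergent pairs. The curves of IP over input lie on each other.

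Distance between the starts did not order the correlation. In the IP, rho was 0.0546 over the 77 pairs up to 50 nt apart, -0.00136 over 57 pairs at 51 to 100 nt, 0.198 over 120 pairs at 101 to 200 nt, and -0.0885 over 49 pairs at 201 to 300 nt. Tandem pairs at these distances had rho values of 0.00425, 0.0169, -0.0387 and 0.0182. In the same order of distance, 8 of the 77 divergent pairs, 4 of the 57, 13 of the 120 and 2 of the 49 hold a histone or cytosolic ribosomal protein gene. The 13 at 101 to 200 nt include pairs of like and of very unlike level. The 796 divergent pairs over 300 nt apart are not members. Those at 301 to 1000 nt had a rho of 0.00464, and the 376 pairs over 1000 nt apart had 0.0830, near that of the close pairs. Tandem pairs over 1000 nt apart had a rho of 0.240.

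At the limits of the rule, 3 pairs have no nt between them and 1 is 300 nt apart. The *atg5* gene, required for autophagy, had IP densities of 0.0413 and 0.0537, against 0.0138 and 0.0206 of its neighbour *SPBC4B4.11*. The other pairs at 0 nt are *SPCC777.17c*-*vps35* (0.0591 and 0.0448 against 0.0815 and 0.0639) and *epl1*-*cnb1* (0.0933 and 0.0893 against 0.119 and 0.129), whose named genes encode subunits of retromer, of the NuA4 acetyltransferase and of calcineurin. The log2 differences of these back-to-back genes, -1.47 ± 0.19, 0.49 ± 0.18 and 0.44 ± 0.13, passed the test described next (limma, adjusted p = 3.30e-06, 0.0181 and 0.00456). However, *SPBC4B4.11* (55 and 173 IP reads) shares 67 nt on its strand with *syj1* (457 and 952 reads). Likewise, *SPCC777.17c* (70 and 112) shares 65 nt with *SPCC777.12c* (180 and 350), so the reads of both may include those of the other gene. Just outside, *hht3*-*hhf3*, a further H3 and H4 pair, is 1 of 3 divergent pairs that overlap by 1 nt. Its IP densities were 0.515 and 0.449 against 0.428 and 0.400. These levels are uncertain, since only uniquely mapping reads were kept and H3 and H4 have several nearly identical genes. At 302 nt, *pts1*-*SPAC4A8.14* had 0.206 and 0.211 against 0.165 and 0.181.

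To test each pair, the log2 difference between its genes was fitted with limma over all adjacent pairs in which both genes had 10 or more reads in every library. For divergent pairs the difference is the plus-strand minus the minus-strand gene, and for tandem pairs the downstream minus the upstream gene. This left 261 of the 303 divergent pairs, and 42 had too few reads. The genes differed in IP, at an adjusted p of 0.05, in 208 of 261 pairs (79.7%), with the plus-strand gene higher in 106 and the minus-strand gene in 102. Among all 4270 adjacent pairs tested, 84.1% differed, and among the 855 tandem pairs 83.7%. In the input, 211 divergent pairs differed (80.8%), with 85.8% of all adjacent pairs and 85.0% of the tandem pairs. The divergent share is close to both backgrounds, and slightly under them.

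**Figure D3:**
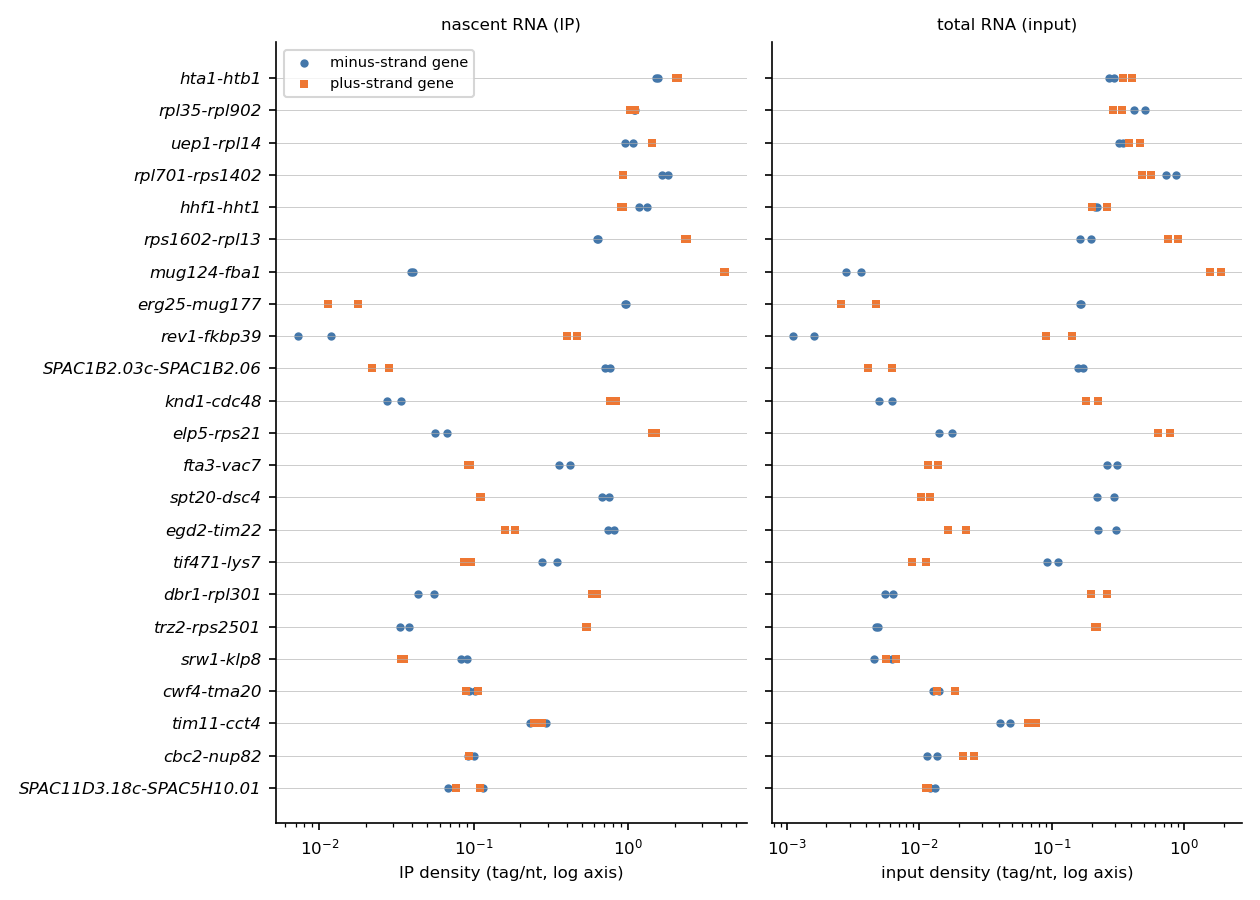
Density (tag/nt, log axis) of both genes of 23 divergent pairs in each IP library (left) and each input library (right), with circles for the minus-strand and squares for the plus-strand gene. The first 6 pairs have the most transcribed lower gene, the next 6 the largest tested difference in IP, the next 7 the largest further differences in IP over input, and the last 4 the smallest difference in IP. Replicates lie close together beside the distance between the genes in the second group.

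The pairs in which both genes were most strongly transcribed were histone and ribosomal protein pairs. The H2A gene *hta1* (SPCC622.08c) had IP densities of 1.52 and 1.54 and input densities of 0.297 and 0.268. The H2B gene *htb1* (SPCC622.09) had 2.08 and 2.04 in the IP and 0.404 and 0.344 in the input. In every library *htb1* was the higher one, by a log2 difference of 0.43 ± 0.07 (SE) in the IP (limma, adjusted p = 6.43e-05) and 0.40 ± 0.07 in the input, so that IP over input did not differ between them (0.03 ± 0.10, adjusted p = 0.863). The H4 gene *hhf1* had IP densities of 1.17 and 1.32 and the H3 gene *hht1* 0.890 and 0.921, while their input densities, 0.219 and 0.212 against 0.260 and 0.203, overlapped. Here the order in the IP was not found in the input, and IP over input was lower for *hht1* by a log2 difference of -0.54 ± 0.13 (limma, adjusted p = 0.00395). H3 and H4 are encoded by several nearly identical genes and only reads that map uniquely were kept, so the levels of *hhf1* and *hht1* are uncertain. Whether unique mapping also lowered *hta1* or *htb1* was not examined, so their difference may hold such a part.

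Ribosomal protein pairs differed from each other in how alike their genes were. Over its 49 nt, *rpl35* had IP densities of 1.09 and 1.10 and *rpl902* 1.02 and 1.10, a log2 difference of -0.05 ± 0.08 (limma, adjusted p = 0.511). The interval of *rpl701*-*rps1402* is shorter still, but *rpl701*, at 1.80 and 1.65, was above *rps1402*, at 0.918 and 0.925, in both replicates (-0.90 ± 0.08, adjusted p = 4.33e-08). Over 11 nt, *rps1602* had 0.626 and 0.636 and *rpl13* 2.39 and 2.33, which was the largest difference of these pairs (1.90 ± 0.09, adjusted p = 2.16e-11). The pair *uep1*-*rpl14*, of a ubiquitin and ribosomal protein fusion gene and a ribosomal protein gene, lay between, with 0.954 and 1.06 against 1.42 and 1.42 (0.49 ± 0.08). Most of these genes have a paralogue with a similar sequence, *rpl701* shares nt with the gene of the snoRNA snoR39b, whose 653 and 1390 IP reads the 2496 and 4831 reads of *rpl701* may include, and *rpl14* and *rpl35* share 30 and 66 nt with another feature on the same strand.

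Apart from *uep1*-*rpl14*, 21 divergent pairs joined a cytosolic ribosomal protein gene to another gene. The ribosomal protein gene was higher in the IP in 21 of them, and in 20 by over 2-fold. The median log2 difference was 3.32. In the 36 such tandem pairs it was higher in 36, with a median of 3.50. The partners had a median log2 IP density of -3.22 in divergent pairs and -3.44 in tandem pairs, beside -3.56 over all protein-coding genes. They ranged from 0.00914 tag/nt for *fzr2*, which encodes an activator of the anaphase-promoting complex in meiosis and lies 17 nt from *rps601* at 0.994, to 0.458 for the histidine synthesis gene *his1*. Outside these families, the 34 partners of genes in the top 10% by IP density had a median of -3.64, and the 56 partners of genes in the bottom 10% also had a median of -3.64. The level of a gene thus said little about the level of the gene that starts beside it.

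The HomolD box followed the ribosomal protein genes. It was found in the interval of 10 of the 25 divergent pairs with a cytosolic ribosomal protein gene, and in 1 of the other 278. Among tandem pairs it was found in 10 of the 25 intervals that precede a ribosomal protein gene and in 0 of the other 940. Within 200 nt upstream of the start it was found for 4.29% of the genes of divergent pairs and for 1.62% of all genes. These shares are not alike in kind, since the windows of both genes of a close divergent pair overlap. The same box can thus count for both genes, and 26 genes stand against 11 intervals with a box. The members also hold 28 of the 141 cytosolic ribosomal protein genes (19.9%). AACCCT was found in both intervals between histone genes and in 18 of the other 301 (5.98%), and in 4.15% of the tandem intervals. TATAAA was found in 64 divergent intervals (21.1%) and in 34.0% of the tandem ones, TGACGT in 4.62% and 2.49%, ACGCGT in 1.32% and 1.24%, and GTAAACA, the FLEX element of forkhead factors, in 8.91% and 9.64%. Both strands were searched, matches may overlap, tandem intervals are longer, and a match is a description and not a site.

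The box in *uep1*-*rpl14* and the box in *trz2*-*rps2501* read the same way in intervals of 101 nt. While *uep1* and *rpl14* differed little, *trz2*, which encodes an enzyme of tRNA 3′ end processing, had IP densities of 0.0332 and 0.0381 against 0.534 and 0.537 of *rps2501*. This log2 difference of 3.91 ± 0.17 passed the test (limma, adjusted p = 1.03e-11).

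In the 6 pairs with the largest tested differences, the higher gene lay between percentiles 93.2 and 99.9 of protein-coding genes by IP density, and the lower one between 5.94 and 34.7. The fructose-bisphosphate aldolase gene *fba1* (SPBC19C2.07, 4.23 and 4.15 in the IP, 1.88 and 1.56 in the input) is the most transcribed gene of all the members. Its partner *mug124*, named for its induction in meiosis, had 0.0404 and 0.0393 in the IP and 0.00282 and 0.00366 in the input. The log2 difference was 6.71 ± 0.18 in the IP and 9.00 ± 0.18 in the input (limma, adjusted p = 1.08e-13 and 2.44e-15).

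The pair *erg25*-*mug177* was of the same kind. The gene *erg25*, of a sterol oxidase in ergosterol synthesis, had 0.963 and 0.953 in the IP and *mug177* 0.0114 and 0.0178, from 24 and 79 reads (-6.06 ± 0.26). Next came *rev1*, of a translesion DNA polymerase, at 0.00723 and 0.0119, beside *fkbp39*, of a peptidyl-prolyl isomerase, at 0.467 and 0.400 (5.52 ± 0.27). In *SPAC1B2.03c*-*SPAC1B2.06* the densities were 0.706 and 0.756 against 0.0219 and 0.0284 (-4.87 ± 0.27). In *knd1*-*cdc48*, where *cdc48* encodes a AAA ATPase that unfolds ubiquitinated proteins, they were 0.0276 and 0.0338 against 0.826 and 0.765 (4.70 ± 0.14). In *elp5*-*rps21*, of an Elongator subunit and a ribosomal protein, they were 0.0560 and 0.0672 against 1.51 and 1.42 (4.57 ± 0.15). In none of these pairs did the libraries of the genes overlap, and all 6 differed the same way in the input. The difference of *rps601*-*fzr2* (-6.78) was larger than that of *mug124*-*fba1*, but *fzr2* had 9 reads in input replicate 1 and the pair was not tested.

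Some pairs were as even as the replicates allow. Among pairs with 100 or more reads of each gene in each IP library, *cwf4*-*tma20*, of a splicing factor and a ribosome-associated protein, had IP densities of 0.101 and 0.0935 against 0.107 and 0.0886. The densities of *tim11*-*cct4*, of an ATP synthase subunit and a chaperonin subunit, were 0.293 and 0.229 against 0.275 and 0.247. Those of *cbc2*-*nup82*, of a cap-binding protein and a nucleoporin, were 0.0996 and 0.0919 against 0.0924 and 0.0933. Those of *SPAC11D3.18c*-*SPAC5H10.01* were 0.115 and 0.0683 against 0.110 and 0.0766. In these 4 pairs the genes overlapped in the IP and their log2 differences, from -0.04 to 0.05, had standard errors of 0.11 to 0.16.

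Even nascent levels did not mean even total levels. In the input, *cct4* was above *tim11* by a log2 difference of 0.67 ± 0.11 (adjusted p = 6.31e-05) and *nup82* above *cbc2* by 0.91 ± 0.11 (adjusted p = 2.63e-06). IP over input differed in these pairs by -0.66 ± 0.16 and -0.95 ± 0.16 (limma, adjusted p = 0.00553 and 0.000495). No such difference passed the test in *cwf4*-*tma20* (-0.25 ± 0.22) or *SPAC11D3.18c*-*SPAC5H10.01* (0.18 ± 0.23).

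Over all members, the difference in the IP was mostly found in the input too. Of the 208 divergent pairs that differed in IP, 185 differed the same way in the input, 3 the opposite way, and 20 not at the threshold. The share that differed the same way was 88.9%, and it was 88.8% for tandem pairs (636 of 716). Both differences had the same sign in 223 of 261 pairs (85.4%) and in 769 of 855 tandem pairs (89.9%), and across pairs they had an r of 0.960 (0.952 over tandem pairs). The libraries of IP and input come from the same cells and the genes keep their lengths, which these points share.

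**Figure D4:**
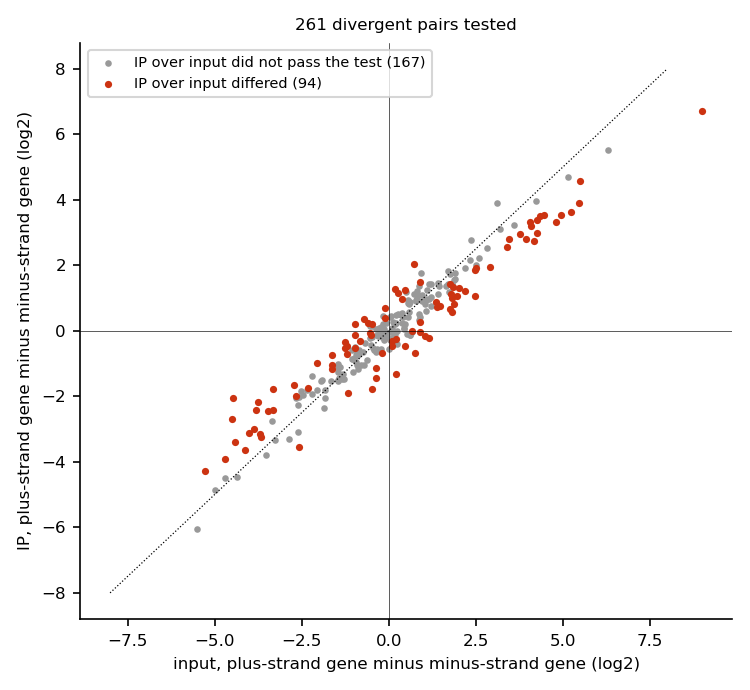
Log2 difference of plus-strand minus minus-strand gene in input (x axis) and IP (y axis) for the 261 divergent pairs tested, with equal differences on the dotted line. Pairs in which IP over input differed (94, limma with adjusted p under 0.05) are in red, and 42 of the 43 of them that differ by over 4-fold in the input lie nearer to 0 in the IP.

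IP over input, the nascent signal relative to total RNA, was centred on the median protein-coding gene of each library. On this scale 56 of the 595 genes of divergent pairs that could be tested were higher in the IP (9.41%) and 132 lower (22.2%). Among all 5043 protein-coding genes tested, 10.4% were higher and 21.4% lower (limma, adjusted p under 0.05), so that the members stood close to the background. On the scale as deposited, the median gene lies 2.38 log2 units higher in the IP than in the input. On that scale 592 of the 595 were called higher and 0 lower, also at an unadjusted p of 0.05. Without IP replicate 1, 36 of 589 were higher and 115 lower, and without limma's trend 8 and 29 of 595. Of the 28 cytosolic ribosomal protein genes among the members, 27 were lower, with a median log2 IP over input of -1.03 beside -0.95 for all 141 genes of the family.

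IP over input of both genes of a pair did not go together. Over 261 divergent pairs, rho was -0.00770 (-0.0319 and 0.0141 in the replicates) and r 0.0475, and over 855 tandem pairs rho was 0.00752. By distance, rho was 0.120, 0.0360, -0.00923 and -0.468, the last over 38 pairs at 201 to 300 nt. Tandem pairs at these distances had -0.127, -0.198, 0.109 and 0.0210. At 201 to 300 nt, 53 convergent pairs, whose genes are transcribed toward each other, had -0.377, so the negative value is not particular to divergent pairs. Both genes were called lower in 17 of 295 divergent pairs and both higher in 0, against 41 and 12 of 954 tandem pairs. At an unadjusted p of 0.05, both were higher in 5 divergent pairs, and edgeR called 2. In 16 divergent pairs (5.42%) the calls were opposite, against 5.35% of tandem and 4.71% of all adjacent pairs. Both were lower in 5.76% of divergent pairs and in 4.65% of all adjacent pairs, and both higher in 1.02% of all adjacent pairs. The genes of a pair differed in IP over input in 94 of 261 divergent pairs (36.0%), in 35.1% of the tandem pairs and in 36.9% of all adjacent pairs tested. Without IP replicate 1, 61 divergent pairs differed. The median absolute log2 difference was 0.40 in divergent and 0.41 in tandem pairs, and 229 of the 261 divergent pairs (87.7%) were within 2-fold.

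Where IP over input differed, the gene with more total RNA mostly had the lower value. This was so in 82 of the 94 pairs, and in 42 of the 43 that differed by over 4-fold in the input, which enters both measures. In *mug124*-*fba1*, the log2 IP over input was 1.11 ± 0.22 for *mug124* and -1.18 ± 0.12 for *fba1*, both called by limma, and the difference was -2.29 ± 0.26 (adjusted p = 1.62e-05). In *dbr1*-*rpl301*, where *dbr1* encodes the lariat debranching enzyme, it was -1.62 ± 0.24, and in *trz2*-*rps2501* -1.56 ± 0.24. In the last such pair, *srw1*-*klp8* (-1.51 ± 0.24), *srw1*, an activator of the anaphase-promoting complex in mitotic cells, had IP densities of 0.0825 and 0.0900 against 0.0353 and 0.0337 of the kinesin gene *klp8*. Their input densities overlapped, at 0.00630 and 0.00454 against 0.00675 and 0.00558, so that the difference in the IP (-1.32 ± 0.17) had no counterpart in the input (0.20 ± 0.17).

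In the other direction, the nascent polypeptide-associated complex gene *egd2* had 0.805 and 0.738 in the IP and 0.306 and 0.222 in the input, while *tim22*, of a mitochondrial import channel, had 0.160 and 0.183 and 0.0226 and 0.0164. IP over input was higher for *tim22* by a log2 difference of 1.58 ± 0.18 (limma, adjusted p = 1.91e-05). In *tif471*-*lys7*, of the translation initiation factor eIF4G and an enzyme of lysine synthesis, the difference was 1.57 ± 0.22 (adjusted p = 0.000120). Here *lys7*, with 121 and 286 reads in the IP and 50 and 35 in the input, shares 67 nt on its strand with *nuc2*. As *nuc2* had 295 and 552 reads in the IP and 172 and 125 in the input, the values of *lys7* may include some of them. In both pairs the gene with the higher level had the lower IP over input, as in the pairs with *fba1*, *rpl301* and *rps2501*, which encodes another ribosomal protein.

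The other large differences in this direction, *fta3*-*vac7* and *spt20*-*dsc4*, involved small RNA genes. The kinetochore gene *fta3* had 388 and 974 reads in the IP and 1073 and 797 in the input. The gene of the snoRNA snoR47 shares 84 nt with it on the same strand, and had 164 and 502 reads in the IP but 934 and 689 in the input. The log2 difference from *vac7*, which encodes a vacuolar regulator of phosphoinositides, was 2.41 ± 0.20 (limma, adjusted p = 1.63e-06). With the snoRNA reads taken off, it was 0.37 and 0.47 in the replicates, with no test.

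In the pair *spt20*-*dsc4*, of a SAGA subunit and a subunit of the Dsc ubiquitin ligase, the difference was 1.81 ± 0.18 (limma, adjusted p = 6.23e-06). Taking off the 643, 1638, 874 and 599 reads of snoU24, which shares 47 nt with *spt20*, left it at 1.99 and 1.73 in the replicates. The difference was thus smaller without the snoRNA reads in *fta3*-*vac7* and as large without them in *spt20*-*dsc4*, on values with no test, and how many of the shared reads come from either gene cannot be told from the table. In *gim6*-*fis1*, a further pair that differed in IP over input (0.89 ± 0.21, limma, adjusted p = 0.00380), taking off the reads of snoZ15 in *gim6* left 0.09 and 0.88 in the replicates, against 0.85 and 0.97 with them.

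There were 6 divergent pairs that held a gene with no IP read. In *mat1-Mi*-*mat1-Mc*, *mat3-Mm*-*mat3-Mc* and *SPBPB2B2.17c*-*SPBPB2B2.18*, both genes were at 0 in all 4 libraries. The *mat1* and *mat3* loci are copies of the mating-type cassettes, and only uniquely mapping reads were kept, so 0 reads there are not a measure of transcription. In the other 3 pairs a gene at 0 lies beside a transcribed one: *SPAC1F3.08c* beside *mug161* at 0.0577 tag/nt, *SPAC1687.23c* beside *gsk3*, of a glycogen synthase kinase, at 0.176, and *SPAC22H10.06c* beside the metallothionein gene *zym1* at 0.151. Over the 294 divergent pairs in which both genes had a read in both IP libraries, rho in the IP was 0.0754 and r 0.152.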

How the data were processed

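After adapter removal, the authors aligned the NET-Seq reads to the ASM294v2 genome of *S. pombe* with Bowtie and kept unique alignments. The tool that counted reads per gene is not given in the sources used here. The deposited read numbers of IP replicate 1 are counts. Those of the remaining 3 libraries, as deposited, are a signal, in which each library was scaled by its own factor, and the density is that signal per nt. Dividing by the smallest positive value gave whole reads for 100% of the values (within 0.01 reads). The coordinates were checked against the RefSeq genome: 5113 of 5119 coding sequences were intact there.

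Levels are log2(density + 0.000118), averaged over replicates. Genes, and differences within adjacent pairs, were compared with limma 3.58.1 with trend (R 4.3.3), over all features or all adjacent pairs, with Benjamini-Hochberg adjustment at 0.05. IP and input were compared gene by gene on log2(normalized reads + 0.318), for features above 0 in 2 or more libraries. The same 0.318 was added to both, though the median protein-coding gene lies 2.38 log2 units higher in the IP. The centred IP over input of genes with few reads is therefore drawn downwards. With a pseudocount 10 times larger, 3845 features were called lower and 747 higher, against 1420 and 829. Differences within pairs used genes with 10 or more reads in every library. The fits were tested on simulated data. As an alternative, edgeR 4.0.16 on the recovered reads called 649 protein-coding genes higher and 1074 lower. The replicate number pairs IP and input, since the labels state that both come from the same biological samples. Replicate differences had an r of only 0.152 over 4644 genes. The main fits did not use this pairing. With the replicate number as a block, 66 genes of divergent pairs were higher and 146 lower, and 108 divergent pairs differed in IP over input. Motifs were searched with Python 3.11.15 as exact matches.

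Pairs were named by rule: the 6 with the most transcribed lower gene, the 6 with the largest tested difference in IP, the 4 with the largest tested difference in IP over input in each direction, the 4 smallest differences in IP, pairs of genes of the same family, and the shortest and longest distance. Pairs with genes at 0 reads, *gim6*-*fis1*, *rps601*-*fzr2*, *hht3*-*hhf3* and *pts1*-*SPAC4A8.14* were named after their values were seen. The members, lists and tests were chosen with earlier results of these data known. Reads of 1 molecule cannot be separated in the table, and with 2 replicates p-values measure the spread between these libraries. Alternatives changed the pseudocount, the read minimum, the scale, the trend, the replicate block, the distance, the gene families, the genes that share nt and the libraries used.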

Additional observations from a re-analysis of the deposited data

How the results depend on the processing

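The weak correlation of the nascent levels of divergent neighbours depended mostly on which genes were used. In the IP, rho over divergent pairs (0.0912) was 0.0754 with IP reads for both genes, 0.150 without genes under the 10th percentile, 0.131 without genes that share nt, -0.00427 without histone and ribosomal protein genes (mitochondrial ones included), 0.105 up to 150 nt, and as Pearson's r 0.294. In the input, rho (0.0702) was 0.0584, 0.128, 0.121, -0.0430, 0.0926 and r 0.168 under these settings, 0.108 with 10 or more reads and 0.0644 with reads per gene. For tandem pairs, the rho in the IP was -0.00961 with IP reads for both genes, -0.0305 without genes under the 10th percentile, -0.0265 with 10 or more reads, 0.0241 with reads per gene, -0.0152 without the families, 0.0268 up to 150 nt and r 0.149. In the input these were -0.0579, -0.0805, -0.0746 and -0.00514, and r 0.0299. The rho of IP over input was -0.116 for divergent pairs without the families, 0.0758 up to 150 nt and r 0.0475, and for tandem pairs -0.0683 up to 150 nt and r -0.0564. The settings on genes without IP reads and under the 10th percentile, edgeR and the removal of small RNA reads were chosen after seeing the data. A pseudocount 10 times smaller or larger moved no correlation of IP or input density beyond the spread of replicates, and was not tried on those of IP over input. The cause of these shifts was not tested.

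Leaving out 1 replicate gave rho of 0.0836 to 0.0923 in the IP and 0.0658 to 0.0710 in the input for divergent pairs. It gave 36 to 65 genes called higher and 61 to 106 pairs with a difference in IP over input. As deposited, 592 genes were higher and 0 lower, and without limma's trend 8 and 29. With 50 reads as the minimum, which leaves 134 divergent pairs, 61 differed in IP over input, 113 in IP and 113 in input. With a replicate block, 108 pairs differed in IP over input, and 66 genes were higher and 146 lower. The block moved no count by over 1.5 times. Taking off small RNA reads moved *fta3*-*vac7* from 2.42 to 0.42, *rpl701*-*rps1402* from -0.28 to -0.59, *gim6*-*fis1* from 0.91 to 0.48 and *spt20*-*dsc4* from 1.82 to 1.86, with no test. Swapping the replicate numbers of the inputs gives the same mean by construction, and restricting to 1 kind of gene was not run, since all genes in the table are protein-coding. In 42 divergent pairs a gene had fewer than 10 reads in a library, and these were not tested.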
